A study of Rattus norvegicus with 4 samples.

Results

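The glycolysis and hypoxia genes described here are 10 genes of glucose use and of the response to low oxygen, followed over 4 arrays of a rat oral epithelial cell line: the glucose carrier gene Slc2a1, the glycolysis genes Hk1, Hk2, Pfkp, Pgk1, Gapdh and Ldha, and the hypoxia genes P4ha2, Bnip3 and Bnip3l. The members are all probe sets that the platform annotation gives to 1 of these 10 symbols alone, 20 of the 31099 probe sets of the table, and the 10 genes are among 14218 measured. A further probe set, shared between Gapdh and Gapdhl10, is described with Gapdh. The 10 genes were picked by name for their known roles, with earlier results of these data known. ROE2 is an immortalized line of epithelial shape, made from tongue tissue of a rat fetus aged 18 days. The donor was a transgenic Wistar rat whose SV40 large T antigen gene is temperature-sensitive. The groups were 0, 3, 6 and 9 days of culture at 37 °C after 24 h at 33 °C, and day 0 is the control. Cells of every day grew on collagen type I in medium with 2% serum and 10 ng/ml EGF, and the labels list no change of oxygen between the days.

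Each day has a single array, which leaves no replicates, no test and no p-value, and the day cannot be told apart from the array. Day 0 also differs from the later days in temperature, so time at 37 °C and the temperature itself cannot be told apart in any comparison with day 0. ROE2 is a single line with an introduced viral gene, which limits how far it stands for oral epithelium. In RNA from a whole culture, fewer cells of a type and less RNA per cell cannot be told apart. All values are log2 probe set values, and all differences are on the log2 scale. Values of different probe sets are not set against each other as levels, since probes differ in brightness.

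Glycolysis splits glucose into pyruvate in the cytosol and yields ATP without oxygen. Glucose enters through carriers such as GLUT1, is trapped by hexokinase, committed by phosphofructokinase and, when pyruvate is not burnt in mitochondria, leaves as lactate made by lactate dehydrogenase. The transcription factor HIF-1 is marked for breakdown by oxygen-dependent prolyl hydroxylases and the VHL protein, and in low oxygen it accumulates and drives genes of glucose uptake, glycolysis, collagen hydroxylation and mitophagy. Many of its targets also respond to growth signals and to differentiation. In stratified epithelium the cells of the upper layers lose their mitochondria as they mature, and the mitophagy receptors encoded by Bnip3 and Bnip3l have been studied in that setting in human keratinocytes.

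The core of the sequence that HIF-1 binds is usually written as ACGTG or GCGTG, and both were searched on both strands in the stretch from 250 bases before to 50 bases after each annotated gene start (RefSeq, GRCr8). Of the 10 genes 8 had an entry, with 2 starts for Hk1. ACGTG lay in at least 1 start region of 6 of these genes, against 19.3% of 33469 promoters of the same length, and either motif in 7 of 8, against 41.6%. The 5 promoters below are shown because their genes took different courses over the 9 days: Slc2a1 and Hk2 stood above day 0 on each later day, Ldha and P4ha2 below it, and Bnip3 above it on day 3 alone. Capitals mark every match to either motif or its reverse complement, and overlapping matches share capitals. Each is written 5′ to 3′ along the gene's strand.
Slc2a1, chr5:138002272-138002571, plus strand: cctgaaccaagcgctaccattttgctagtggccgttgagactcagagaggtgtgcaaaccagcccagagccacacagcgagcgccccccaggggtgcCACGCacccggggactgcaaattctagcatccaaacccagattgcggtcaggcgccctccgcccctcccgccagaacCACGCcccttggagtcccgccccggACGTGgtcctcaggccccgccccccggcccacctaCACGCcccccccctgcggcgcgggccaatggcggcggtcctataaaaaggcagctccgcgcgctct
Hk2, chr4:116841226-116841525, minus strand: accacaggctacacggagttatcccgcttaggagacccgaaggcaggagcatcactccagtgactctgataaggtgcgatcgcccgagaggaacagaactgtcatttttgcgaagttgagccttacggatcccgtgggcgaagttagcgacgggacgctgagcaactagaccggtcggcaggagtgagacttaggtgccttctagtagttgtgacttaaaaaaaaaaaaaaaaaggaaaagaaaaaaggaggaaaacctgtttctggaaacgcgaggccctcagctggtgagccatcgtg
Ldha, chr1:106507842-106508141, plus strand: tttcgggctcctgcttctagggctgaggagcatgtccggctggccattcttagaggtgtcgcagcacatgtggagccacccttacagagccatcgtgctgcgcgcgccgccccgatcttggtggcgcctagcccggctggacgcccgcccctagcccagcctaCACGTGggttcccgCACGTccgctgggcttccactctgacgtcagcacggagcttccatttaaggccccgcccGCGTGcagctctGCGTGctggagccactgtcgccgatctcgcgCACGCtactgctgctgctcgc
P4ha2, chr10:38743644-38743943, plus strand: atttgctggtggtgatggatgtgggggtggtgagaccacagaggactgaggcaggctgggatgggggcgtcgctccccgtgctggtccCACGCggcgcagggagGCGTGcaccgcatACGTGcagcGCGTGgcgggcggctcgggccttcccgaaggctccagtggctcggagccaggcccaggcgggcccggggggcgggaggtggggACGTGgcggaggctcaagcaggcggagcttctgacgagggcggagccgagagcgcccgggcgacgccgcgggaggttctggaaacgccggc
Bnip3, chr1:203154913-203155212, minus strand: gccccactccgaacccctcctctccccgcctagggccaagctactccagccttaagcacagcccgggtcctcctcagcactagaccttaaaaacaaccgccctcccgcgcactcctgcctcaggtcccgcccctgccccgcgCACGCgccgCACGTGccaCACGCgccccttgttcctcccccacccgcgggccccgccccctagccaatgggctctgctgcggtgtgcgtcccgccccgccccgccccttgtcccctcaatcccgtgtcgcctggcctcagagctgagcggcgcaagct
The Ldha promoter held 3 matches to ACGTG, at -87, -86 and -73 from the start, of which the first pair are both strands of 1 CACGTG. The Bnip3 promoter held 1 such palindrome as well, with its matches at -99 and -98. Slc2a1 had 1 ACGTG at -51 and P4ha2 had a pair at -133 and -41. The Hk2 window held 0 matches to ACGTG and 0 to GCGTG. Hk2 was among the members with the largest differences, and a link between matches and differences was not tested. A match is a stretch of letters and not a measured binding site. These promoters were also rich in G and C, at 68.3% for Slc2a1, 66.7% for Ldha, 73.3% for P4ha2 and 71.3% for Bnip3, against 51.0% for Hk2. Both motifs contain CG, and the shares over all promoters were not matched for G and C content.

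The arrays carried clear epithelial signal. Krt14 lay between 14.04 and 14.15 on the 4 arrays and Krt5 between 12.92 and 13.44, and Krt13, the suprabasal keratin of oral mucosa, was at 9.68, 12.23, 13.55 and 13.91 on days 0, 3, 6 and 9. All 6 fibroblast markers measured, Col1a1 and Dcn among them, were on no array above the brightest of the 27 probe sets for bacterial control transcripts, as were 3 of 4 endothelial and 3 of 4 leukocyte markers. The summed linear signal of the 6 fibroblast markers was 56.2, 58.1, 57.4 and 59.2 on days 0, 3, 6 and 9. The fourth leukocyte marker, Cd68, which is also a lysosomal gene of other cells, was at 5.32, 6.54, 6.27 and 6.18. Of 14218 measured genes 8802 passed a floor, meaning that some array read 6 or more, and over these the median gene lay at -0.05, -0.18 and -0.14 on days 3, 6 and 9 relative to day 0. A set of 18 probe sets for spiked-in hybridisation controls lay higher than on day 0 by a median of 0.14, 0.39 and 0.63, so centring arrays on these spike-ins lowers each member by those amounts. Median-gene centring subtracts from each array its median over all 14218 genes, which lay at -0.04, -0.22 and -0.16 relative to day 0, so it raises each member by those sizes. A difference smaller in size than such a shift can change sign. Sign changes under either centring are given for the brightest probe set of each gene, on each day for the members. For the other genes they are given on day 9, where the gene is above the floor and its day 9 difference is printed.

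Few members passed 2-fold. A gene was represented by its probe set with the highest mean, and counted as apart when 2 arrays differed by 1 or more, which is 2-fold. Of the 10 genes 0 were 2-fold or more apart on day 3 against day 0, beside a background of 6.45% over all genes (4.31% higher, 2.15% lower). On day 6 it was 1 gene, Hk2, against 13.8% of all genes (5.74% higher, 8.08% lower). On day 9 it was also 1, Bnip3l, against 11.8% (5.57% higher, 6.25% lower). These shares at 2-fold are near the background or below it. At 1.5-fold or more the members apart were 5, 4 and 4 of 10 on days 3, 6 and 9, against 20.2%, 34.9% and 31.7% of all genes. The median over the 10 members was 0.16, -0.28 and -0.10, beside -0.05, -0.18 and -0.14 over all genes. Members lay on both sides of 0, so the median hides the single genes. On day 9 Bnip3l, Slc2a1 and Hk2 lay above 94.8%, 94.0% and 93.9% of the 8802 genes, whereas P4ha2 lay above 7.27%. The 3 comparisons share the day 0 array.

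**Figure D1:**
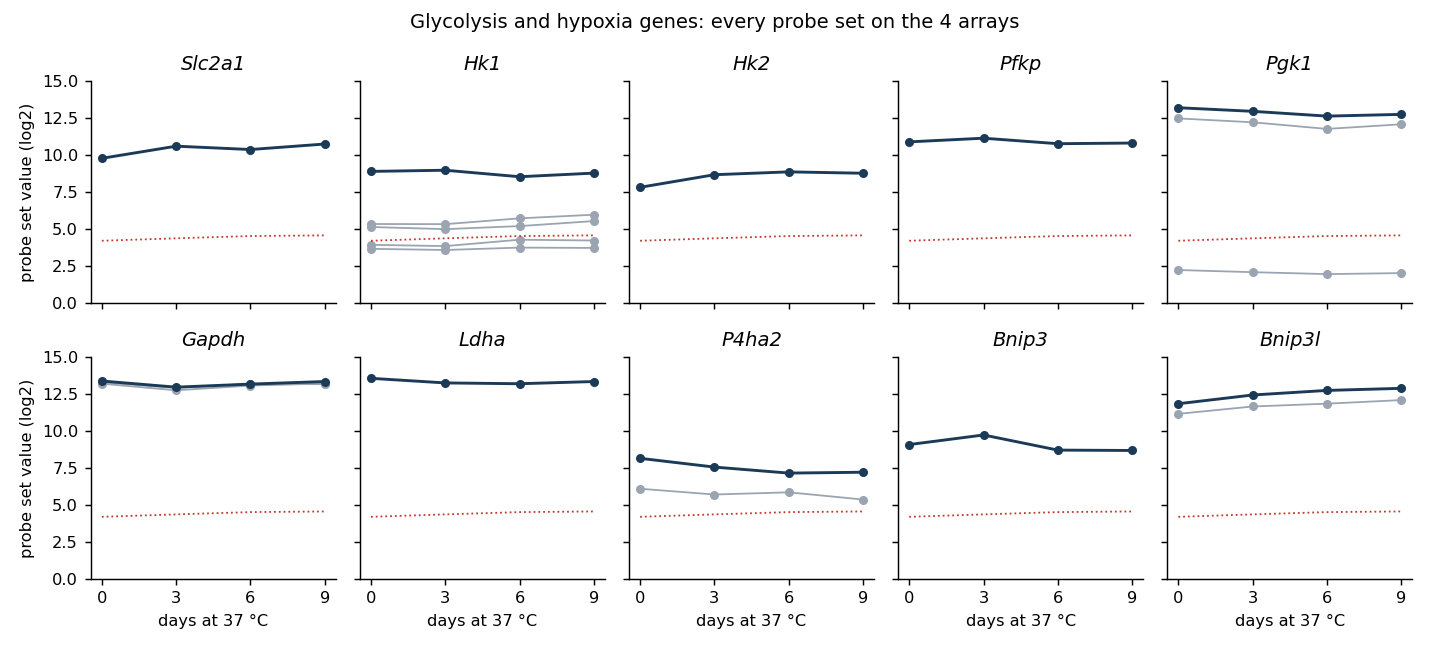
Log2 value of every member probe set (vertical axis) on days 0, 3, 6 and 9 at 37 °C (horizontal axis), with 1 panel per gene; dark lines are the probe set with the highest mean, grey lines the gene's other probe sets, the dotted line the brightest of 27 bacterial control probe sets. Slc2a1, Hk2 and Bnip3l are lowest on day 0 and P4ha2 is highest there, while Bnip3 is highest on day 3.

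Slc2a1 encodes GLUT1, the main glucose carrier of many epithelial and proliferating cells. Its 1 probe set, 1370848_at, read 9.77, 10.59, 10.37 and 10.74 on days 0, 3, 6 and 9. Day 0 was the lowest of the 4 arrays. The differences from day 0 were 0.82, 0.59 and 0.97, and the day 9 value corresponds to 1.96-fold, just under the 2-fold rule. On day 9 this difference was larger than that of 94.0% of the 8802 genes. It remained above 0 on all 3 days after spike-in centring, at 0.68, 0.21 and 0.33.

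The 2 measured hexokinase genes took different courses. Hexokinases phosphorylate glucose and hold it in the cell, and the type II enzyme encoded by Hk2 is the inducible form of muscle, fat and many tumours. Hk2, on probe set 1369006_at, was at 7.81, 8.66, 8.85 and 8.76 on days 0, 3, 6 and 9. The 3 later arrays were close together and all above day 0, by 0.85, 1.04 and 0.95, or 1.81-fold, 2.06-fold and 1.93-fold. After spike-in centring these differences were 0.71, 0.66 and 0.32.

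Hk1, the widely expressed type I enzyme, was at 8.89, 8.96, 8.52 and 8.77 on its brightest probe set, 1386929_at. The differences of 0.08, -0.36 and -0.12 show no steady course, and their sign changed on day 3 after spike-in centring (-0.06) and on day 9 after median-gene centring (0.05). The other 4 Hk1 probe sets never reached a value of 6. Among them 1398725_at and the 5′ control set AFFX_Rat_Hexokinase_5_at were never above the brightest bacterial control. The 3′ control set AFFX_Rat_Hexokinase_3_at read 5.33, 5.32, 5.71 and 5.95 and the middle set AFFX_Rat_Hexokinase_M_at 5.13, 4.98, 5.18 and 5.53. On day 9 they were at 0.63 and 0.40, against -0.12 for the brightest probe set, so as deposited the Hk1 probe sets disagreed in sign. After spike-in centring all 3 were below 0, at -0.01, -0.23 and -0.75, and after median-gene centring all 3 were above 0, at 0.79, 0.56 and 0.05.

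Pfkp encodes the platelet-type phosphofructokinase, which catalyses the committing step of glycolysis. Probe set 1372182_at was at 10.88, 11.13, 10.76 and 10.80 on days 0, 3, 6 and 9. Only the day 3 array stood above day 0, by 0.25, and the day 6 and day 9 differences of -0.12 and -0.08 changed sign after median-gene centring, to 0.10 and 0.08.

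Gapdh encodes the enzyme that oxidises glyceraldehyde 3-phosphate, and it is often used as a reference gene. The array carries control probe sets for its 3′ end, middle and 5′ end. The 3′ set AFFX_Rat_GAPDH_3_at read 13.38, 12.97, 13.17 and 13.35 on days 0, 3, 6 and 9. The middle set AFFX_Rat_GAPDH_M_at read 13.20, 12.75, 13.08 and 13.21, and the 5′ set AFFX_Rat_GAPDH_5_at 13.28, 12.92, 13.19 and 13.16. All 3 had their lowest value on day 3, at -0.42, -0.45 and -0.36 against day 0, and on day 9 they were at -0.03, 0.01 and -0.12. On day 6 the 3′ set differed by -0.21, which was 0.01 after median-gene centring but -0.03 relative to the median difference of the 8802 genes above the floor, so its sign turns on which genes give the median. The day 9 difference became 0.13 after median-gene centring. The probe set shared with Gapdhl10, 1367557_s_at, followed the same course with 13.66, 13.32, 13.50 and 13.64. Gapdh has many processed copies in rodent genomes, which the probes may also bind, and all its values lay near the top of the arrays' range of 1.55 to 14.23, where a change is hard to see.

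Those control sets also show RNA integrity along the transcript. The 3′ minus 5′ difference of Gapdh was 0.10, 0.04, -0.02 and 0.18 on days 0, 3, 6 and 9. For Hk1 it was 1.41, 1.48, 1.45 and 1.75, with a 5′ set at background, and for beta-actin 2.25, 2.44, 1.22 and 2.35. The beta-actin value of day 6 stands apart from the other days, while the Gapdh and Hk1 values of that day do not. Its part in the day 6 values of the members was not tested.

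Pgk1 encodes phosphoglycerate kinase, the first ATP-making step. Its brightest probe set 1388318_at read 13.19, 12.95, 12.63 and 12.74 and its second, 1387361_s_at, 12.47, 12.21, 11.76 and 12.07 on days 0, 3, 6 and 9. Both were highest on day 0 and lowest on day 6, where they differed from day 0 by -0.57 and -0.71, and on day 9 they were at -0.45 and -0.40. The third, 1368906_at, never exceeded 2.21 and was not above the brightest bacterial control on any array. Ldha encodes the lactate dehydrogenase subunit that favours lactate formation. It was at 13.56, 13.25, 13.20 and 13.35 on probe set 1367586_at, again highest on day 0, with differences of -0.31, -0.37 and -0.22 that were below 1.5-fold on each day.

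**Figure D2:**
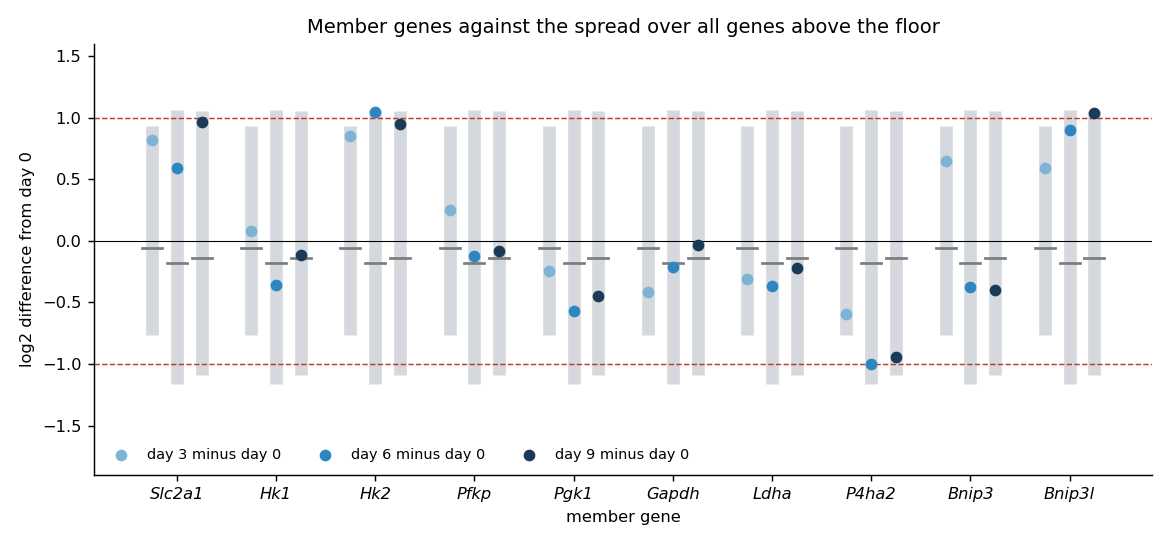
Log2 difference from day 0 (vertical axis) of the 10 member genes (horizontal axis) on days 3, 6 and 9, with grey bars from the 5th to the 95th percentile of the same difference over all 8802 genes, short lines at their median and dashed lines at 2-fold. Every Hk1, Pfkp, Pgk1, Gapdh and Ldha point lies within 1.5-fold of day 0, and the Slc2a1, Hk2 and Bnip3l points lie near the upper ends of the bars on day 9.

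The 3 hypoxia members each took a course of their own. P4ha2 encodes a catalytic subunit of collagen prolyl 4-hydroxylase, the enzyme that stabilises the collagen triple helix and whose genes HIF-1 induces. Its brighter probe set 1372610_at was at 8.15, 7.56, 7.15 and 7.21 on days 0, 3, 6 and 9. Day 0 was the highest, and the differences of -0.59, -0.999 and -0.94 stayed under the 2-fold rule, narrowly so on day 6. The dimmer probe set 1375332_at read 6.09, 5.70, 5.85 and 5.36, with smaller differences of -0.39, -0.24 and -0.73 in the same direction. P4ha2 was lower than day 0 under each of the 3 other scalings as well, at -1.58 on day 9 after spike-in centring.

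Bnip3 and Bnip3l encode related outer-membrane proteins of mitochondria that recruit the autophagosome and mark the organelle for removal. Bnip3, on probe set 1387805_at, was at 9.08, 9.73, 8.71 and 8.68 on days 0, 3, 6 and 9. It was highest on day 3, by 0.65 or 1.57-fold over day 0, and lower than day 0 on days 6 and 9, by -0.37 and -0.40. Between day 6 and day 3 it differed by -1.02, the only member 2-fold or more apart in that step, where 2.43% of all genes were. That step was -1.27 after spike-in centring but under 2-fold after median-gene centring (-0.84) and after a further quantile normalization (-0.97), alternatives chosen after seeing the data. A share of 1.48% of genes had a more negative difference in that step.

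Bnip3l, the gene of the receptor also called NIX, was higher on each later array than on the one before. Probe set 1367898_at read 11.84, 12.44, 12.75 and 12.89 and probe set 1386978_at 11.16, 11.66, 11.85 and 12.09 on days 0, 3, 6 and 9. The brighter one was 0.59, 0.90 and 1.04 above day 0, the last of these 2.06-fold, and the other 0.50, 0.69 and 0.93. Both thus passed through the same order of days, with day 9 above day 0 by about the size of the rule. After spike-in centring the brighter probe set was still above day 0 by 0.45, 0.51 and 0.41, but its order of days was no longer steady. The step from day 6 to day 9 held 0 members at 2-fold, against 0.841% of all genes.

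**Figure D3:**
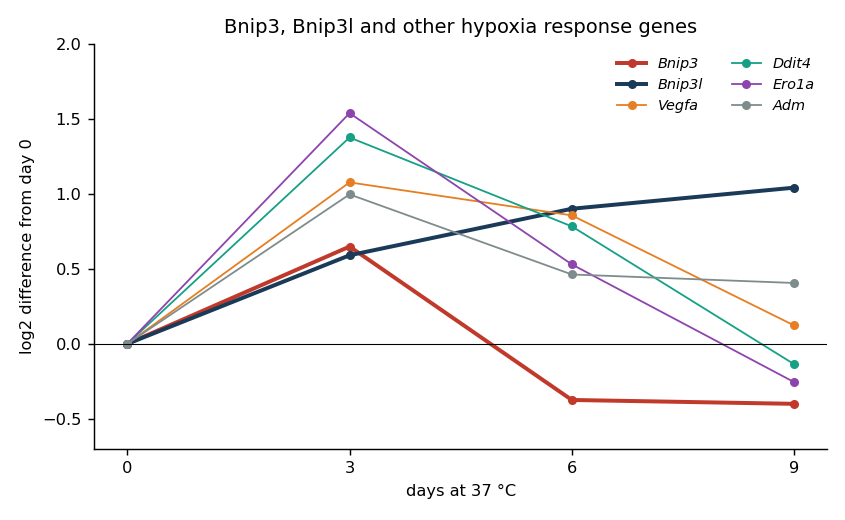
Log2 difference from day 0 (vertical axis) on days 0, 3, 6 and 9 at 37 °C (horizontal axis) for Bnip3 and Bnip3l (thick lines) and 4 other hypoxia response genes, which were picked after their values were seen. As deposited, Bnip3l is highest on day 9, at 1.04, whereas Bnip3, Vegfa, Ddit4, Ero1a and Adm are highest on day 3, at 0.65, 1.08, 1.38, 1.54 and 1.00. Adm was just under 2-fold on day 3, and on day 9 it was at 0.41, or -0.23 after spike-in centring. Hmox1, also 2-fold higher on day 3 (1.10), is not plotted and was highest on day 9 (1.17). Genes of the list that stood closer to day 0 on day 3, such as Pdk1 (0.14), Hilpda (0.10) and Ak4 (0.04), are not plotted either.

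The other glycolysis genes were mostly close to day 0. Of 20 such genes 17 were measured and 14 were above the floor, and on days 3, 6 and 9 the number 2-fold or more higher was 0, 0 and 1 and the number lower 0, 1 and 1, beside the 4.31%, 5.74% and 5.57% higher and 2.15%, 8.08% and 6.25% lower over all genes. The list median was 0.03, -0.15 and -0.16, beside -0.05, -0.18 and -0.14 over all genes. Pfkfb2, a gene of the enzymes that make and remove the phosphofructokinase activator fructose 2,6-bisphosphate, was at 6.17, 6.84, 7.11 and 7.33, with a day 9 difference of 1.16, while 2 other probe sets of it gave 0.02 and 0.21. Its difference was 0.52 after spike-in centring, under 2-fold. Eno3, the muscle-type enolase gene, was at 6.54 on day 0 and 6.15 on day 3, with differences of -1.54 on day 6 and -1.25 on day 9. Aldoc, an aldolase gene, was 0.93 higher on day 9 and Pfkfb4, another gene of that bifunctional family, 0.74.

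Read along the pathway, the plotted genes furthest above day 0 on day 9 were Slc2a1, Hk2 and Aldoc, the last at 0.50, 0.58 and 0.93 on days 3, 6 and 9. Gpi, the isomerase gene of the next step after hexokinase, was at -0.78, -0.91 and -0.44, and Eno1, the main enolase gene of epithelial cells, at -0.74, -0.50 and -0.46. Aldoa was at -0.00, 0.09 and 0.35, Tpi1 at -0.18, -0.31 and 0.11 and Pgam1 at -0.04, -0.13 and -0.19. Gpi and Eno1, like Tpi1 and Pgam1, were named after their values were seen, to complete the pathway. The lower or near-0 values of these steps moved further down after spike-in centring, where Aldoa was at -0.28 and Tpi1 at -0.53 on day 9.

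**Figure D4:**
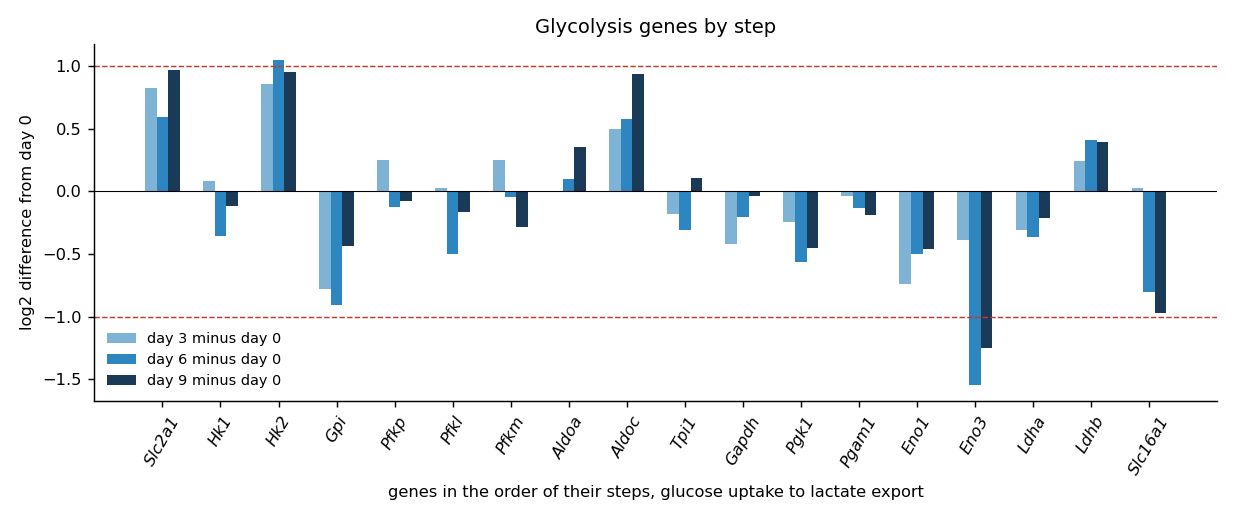
Log2 difference from day 0 (vertical axis) on days 3, 6 and 9 for 18 genes above the floor in the order of their steps from glucose uptake to lactate export (horizontal axis), with dashed lines at 2-fold. The pyruvate kinase gene Pkm was not measured and the lactate carrier gene Slc16a3 was below the floor, so neither is plotted. As deposited, Slc2a1, Hk2, Aldoc and Ldhb are above 0 on all 3 days. Ldhb, named here because it is plotted, is at 0.24, 0.41 and 0.39, and at -0.24 on day 9 after spike-in centring. Gpi, Gapdh, Pgk1, Pgam1, Eno1, Eno3 and Ldha are below 0 on all 3 days, although Gapdh on days 6 and 9 and Pgam1 on day 6 are above 0 after median-gene centring.

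Of 10 other carriers of glucose and lactate, 9 were measured and only 3 were above the floor. As deposited 0 of them were 2-fold apart on any day, with a list median of 0.03, -0.12 and -0.15. Slc16a1, the gene of the lactate carrier MCT1, was at 10.67, 10.70, 9.87 and 9.70, close to day 0 on day 3 and -0.97 on day 9. The endosomal carrier gene Slc2a8 was 0.62 higher on day 9 and Bsg, the gene of the chaperone of lactate carriers, was at -0.15. On day 9 Slc2a8 was at -0.01 after spike-in centring and Bsg at 0.01 after median-gene centring. Slc16a1 was 2-fold lower on days 6 and 9 after spike-in centring, at -1.19 and -1.60.

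Among genes of oxygen sensing, 9 of 10 were measured and 6 were above the floor. As deposited 0 were 2-fold apart from day 0, beside 6.45%, 13.8% and 11.8% of all genes on days 3, 6 and 9. The list median was 0.21, 0.30 and 0.42, above the median gene on each day. After spike-in centring, which moves every gene alike, it was 0.07, -0.09 and -0.22, beside -0.20, -0.58 and -0.79 over all genes. Hif1a, the oxygen-regulated subunit gene of HIF-1, was at 11.59, 12.56, 12.43 and 12.24, with its largest difference on day 3 (0.97) and 0.66 on day 9. Epas1, which encodes HIF-2 alpha, was 0.75 higher on day 9, the prolyl hydroxylase gene Egln3, itself a HIF target, 0.97 higher on day 6 and 0.56 on day 9, and Vhl 0.27 on day 9. After spike-in centring the day 9 differences were 0.02 for Hif1a and 0.12 for Epas1, and those of Egln3 and Vhl were below 0, at -0.07 and -0.36. After median-gene centring Hif1a was 2-fold higher on days 3 and 6 (1.01 and 1.07) and Egln3 on day 6 (1.19). The share of all genes 2-fold apart was then 6.53% on day 3 and 13.0% on day 6. HIF-1 is regulated largely at the level of protein, which these arrays do not measure.

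Of 24 other hypoxia response genes 21 were measured and 17 above the floor. On days 3, 6 and 9 the number 2-fold or more higher was 4, 0 and 1 and the number lower 1, 1 and 1, beside 4.31%, 5.74% and 5.57% higher and 2.15%, 8.08% and 6.25% lower over all genes, with a list median of 0.14, 0.11 and -0.14. The 4 higher genes of day 3, named for that reason, were Vegfa, Ddit4, Ero1a and Hmox1. Vegfa, the vascular growth factor gene, was at 10.06, 11.13, 10.91 and 10.18, and Ddit4, a stress-induced inhibitor gene of mTORC1, at 10.69, 12.06, 11.47 and 10.55. Ero1a, an oxidase gene of the endoplasmic reticulum, was at 8.39, 9.93, 8.92 and 8.13. Ddit4 and Ero1a are also known targets of the ATF4 stress response. These 3 were highest on day 3, like Bnip3, and at 0.12, -0.14 and -0.26 against day 0 on day 9, where Vegfa was at -0.51 after spike-in centring and Ddit4 at 0.02 after median-gene centring. A second probe set of Ero1a was still 0.88 higher on day 9. Other genes of the list, named after their values were seen, stood closer to day 0 on day 3. Pdk1, Hilpda, Higd1a, P4ha1 and Ak4 were then at 0.14, 0.10, 0.07, 0.06 and 0.04. Bhlhe40, Plod1 and Kdm3a were at 0.01, 0.00 and -0.21. Hmox1, the haem oxygenase gene, was 1.10, 0.70 and 1.17 higher, and Tfrc, the transferrin receptor gene, was lower, by -1.43, -2.21 and -1.41. Mxi1, the gene of a MYC antagonist, was at 0.70, 0.59 and 0.55, and at -0.08 on day 9 after spike-in centring. Second probe sets of Vegfa, Ndrg1 and Mxi1 were 1.32, 1.22 and 1.07 higher on day 6. The day 6 count of 0 thus holds for the brightest probe sets alone. Ndrg1, named for this reason, was at 0.26 on day 9 on its brightest probe set. That value was -0.37 after spike-in centring, while the second Ndrg1 probe set gave 1.47. After spike-in centring only Ddit4 and Ero1a of the list were 2-fold higher on day 3 and 0 were on day 9, where Hmox1 was at 0.53. After median-gene centring 5, 3 and 1 genes of the list were 2-fold higher on days 3, 6 and 9.

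The collagen hydroxylase genes above the floor differed less than the brighter P4ha2 probe set did. On day 6 the dimmer P4ha2 probe set, at -0.24, differed less than P4ha1, at -0.51. Of 10 genes 9 were measured, 4 were above the floor and as deposited 0 were 2-fold apart, with a list median of -0.04, -0.42 and -0.28. P4ha1, which encodes the other main catalytic subunit, was at 9.37, 9.43, 8.85 and 8.86, at -0.50 on day 9. P4hb, the shared beta subunit gene, was at 0.09 on day 9, Plod1 at -0.14 and Plod3 at -0.43. P4hb was at -0.55 after spike-in centring and Plod1 at 0.02 after median-gene centring. P4ha1 and Plod3 were 2-fold lower on day 9 after spike-in centring, at -1.14 and -1.06. P4ha1 and Plod1 are also in the hypoxia list. The collagen genes Col1a1, Col1a2 and Col3a1 were at background on every array.

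In the mitophagy and autophagosome list 14 of 19 genes were measured and all 14 were above the floor. Map1lc3b and Gabarapl2 were among those not measured. The median was 0.06, 0.30 and 0.31, and after spike-in centring it was -0.08, -0.09 and -0.33, beside -0.20, -0.58 and -0.79 over all genes. On day 9 Ulk1, the gene of the kinase that starts autophagy, was 1.00 higher and the only gene of the 14 at 2-fold, beside 5.57% higher over all genes. It was at 0.37 after spike-in centring, and a second probe set gave 0.88. Map1lc3a, a gene of the LC3 family to which both receptors bind, was at 9.08, 9.36, 9.75 and 9.76, with a day 9 difference of 0.68. Pink1, the gene of the kinase of the other mitophagy route, was 0.66 higher on day 9 and Optn, an autophagy adaptor gene, at -0.92, though a second Optn probe set gave -0.27.

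The routes that branch off glycolysis had few genes apart. In the list of pyruvate entry and the citrate cycle, 25 of 28 genes were measured and 23 above the floor, with 0 higher on any day and 0, 1 and 0 lower, beside 2.15%, 8.08% and 6.25% lower over all genes, and a median of -0.10, -0.24 and -0.21. Pdp1, the phosphatase gene that activates pyruvate dehydrogenase, was at -0.90 on day 9, after -1.01 on day 6 (-0.79 after median-gene centring), and Pdha1, the gene of the dehydrogenase's alpha subunit, at -0.83, though a second probe set gave -0.10. The citrate cycle genes Ogdh and Suclg1 were at 0.70 and -0.62. After spike-in centring 11 of the 23 were 2-fold lower on day 9, where the share of all genes 2-fold apart either way was 35.5% against 11.8% as deposited. The share of all genes lower alone is not given for that centring. The list median was then -0.84 on day 9, beside -0.79 over all genes.

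In the pentose phosphate list 6 of 7 genes were measured, all above the floor, and as deposited 0 were higher. Pgd, the 6-phosphogluconate dehydrogenase gene, was the 1 lower, by -1.14 on day 9, and under 2-fold after median-gene centring (-0.98). The others named were Pgls at -0.73, Rpia at 0.83 and Rpe at 0.16, which was -0.47 after spike-in centring. Rpia was 2-fold higher on day 6 after median-gene centring (1.12). After spike-in centring 2 genes of this list were 2-fold lower on each of days 6 and 9. Of 12 glycogen genes 10 were measured and above the floor, and 0, 1 and 1 were lower, beside the same shares over all genes as for the citrate cycle list. That gene was Gbe1, which encodes the glycogen branching enzyme and was at 8.54, 7.86, 6.81 and 7.30, or -1.24 on day 9. Phkb was at 0.32, Gys1 at -0.29 and Pygl at 0.29, and after spike-in centring Phkb and Pygl were at -0.31 and -0.34. The glycogen list median was 0.40, 0.10 and -0.03 and the pentose list median -0.11, -0.18 and -0.09.

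Genes with a course like that of the 2 members past 2-fold were sought by the root mean square distance over the 3 differences from day 0, with no statement on shared control. For Hk2 the nearest were Frmd4b, at a distance of 0.04, the fatty acid binding protein gene Fabp5, at 0.04, and Rbm47, at 0.04, and 145 of the 8802 genes lay within 0.2. For Bnip3l the nearest were the deubiquitinase gene Usp2, at 0.02, the endosome gene Ehd1, at 0.04, and the epidermal transcription factor gene Tfap2a, at 0.04, among 181 genes within 0.2. Both courses were thus shared by many genes.

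**Figure D5:**
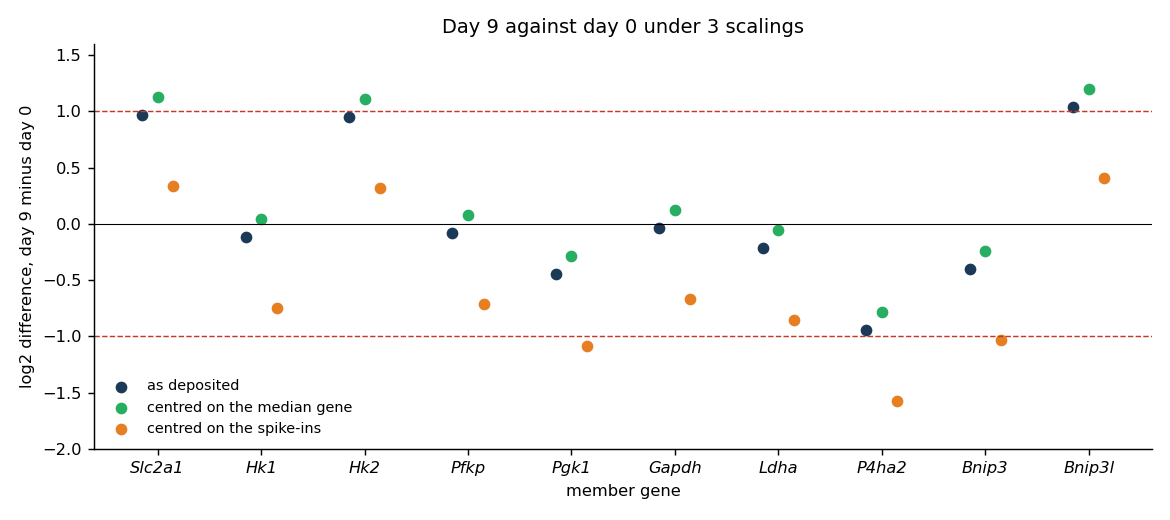
Log2 difference between day 9 and day 0 (vertical axis) of the 10 member genes (horizontal axis) as deposited, after median-gene centring and after spike-in centring; dashed lines mark 2-fold. Slc2a1, Hk2 and Bnip3l are above 0 and Pgk1, Ldha, P4ha2 and Bnip3 below 0 under all 3 scalings, whereas Hk1, Pfkp and Gapdh change sign.

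On day 9 the values of Slc2a1, Hk2 and Bnip3l were 1.13, 1.11 and 1.20 after median-gene centring, and 0.33, 0.32 and 0.41 after spike-in centring. Where a gene had more than 1 probe set above the floor, the range of the day 9 difference among them had a median of 0.44 over 2092 genes, and it was 0.11 for Bnip3l, 0.21 for P4ha2, 0.05 for Pgk1 and 0.13 for Gapdh. On day 6 the 2 probe sets of P4ha2 parted by 0.76, the widest gap among these members.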

How the data were processed

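Total RNA of 1 culture per day was turned into biotin-labelled cRNA from 500 ng with a 3' in vitro transcription kit, per the labels' protocols, with RNA integrity numbers of 9.5 to 10, and hybridised to 1 array per day. The deposited table holds log2 values, which the authors derived by RMA according to the submitters' processing notes. Software and version were not given in the sources used here. That the base is 2 was read from the range, 1.55 to 14.23. RMA gives the arrays a common distribution, so total RNA per cell is not measured.

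Of 31099 probe sets, 20832 had 1 gene symbol, 436 several and 9831 none in the platform annotation. A gene took its probe set with the highest mean, which gave 14218 genes, 8802 of them at 6 or more on at least 1 array. Genes 2-fold or more apart were counted. Named genes were all member probe sets, the 4 genes of each list with the largest day 9 difference and the 3 nearest to each member past 2-fold, with exceptions stated where they occur. The members, lists, rules and most alternatives were chosen with earlier results of these data known. The 2-fold rule was run on simulated data, with noise set from the differences between the day 6 and day 9 arrays. Without replicates that run cannot give the rule's error in these data. Alternatives covered the floor, the probe set, the scaling and the threshold. The number of arrays limits the precision. Python 3.11.15, numpy 2.4.6 and pandas 2.3.3 were used.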

Additional observations from a re-analysis of the deposited data

How the results depend on the processing

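The counts of members 2-fold or more apart from day 0 (0, 1 and 1 of 10 on days 3, 6 and 9) were small, so single genes decide them. After median-gene centring they were 2 on day 6 and 3 on day 9, beside 13.0% and 11.4% of all genes. After spike-in centring they were 3 on day 9, all lower, beside 35.5% of all genes apart in either direction. At a threshold of 1.5-fold they were 5, 4 and 4 (20.2%, 34.9% and 31.7% of all genes), and at 3-fold 0 on each day (1.95%, 4.04% and 3.58%). With probe sets averaged per gene the count was 0 of 9 on day 9 (10.6%), since Bnip3l was then at 0.99, under 2-fold. The members were 9 there because Hk1 fell below the floor. The day 6 count of 1 after spike-in centring was P4ha2, not Hk2, and the day 9 count of 1 after a further quantile normalization was Hk2, not Bnip3l. The member median was 0.16, -0.28 and -0.10. It was 0.25 and -0.14 on days 3 and 6 over those 9 genes with the mean over probe sets, -0.062 and 0.063 on days 6 and 9 after median-gene centring, and 0.024, -0.67 and -0.73 on days 3, 6 and 9 after spike-in centring. Removing the floor, a floor of 8 and unmarked probe sets alone left each count and median unchanged, which was fixed in advance. The chosen probe set of every member is unmarked and reaches 8 on at least 1 array, so these settings could not move it. Of 207 values of single members under the alternatives, those of these settings included, 170 kept their sign and stayed within 1.5 times. The cause of these shifts was not tested. No paired analysis was possible because there was 1 array per day. Members at background on these arrays are limited by their signal, as 5 of the 20 probe sets never reached a value of 6.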

Other observations

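Of the genes in the lists of related pathways, 22 were measured but stayed below a value of 6 on all 4 arrays, and 7 of these were never above the brightest bacterial control. Some of the others differed between days and are given here as values, picked after they were seen. Pdk4, the gene of a kinase that shuts pyruvate out of the citrate cycle, was at 2.91, 4.41, 5.69 and 4.80 on days 0, 3, 6 and 9, at least 2.82-fold higher on day 6 than on day 0, with day 0 set to the brightest bacterial control. A second Pdk4 probe set stayed at background. Arnt, which encodes the constant partner of the HIF alpha subunits, was at 4.27, 4.88, 5.51 and 5.79, a day 9 difference of 1.52. Eno2, the enolase gene of neurons and a hypoxia-responsive gene, was above the bacterial controls on day 3 alone, at 5.30 and at least 2.15-fold higher than on day 0. The values of Pdk4, Arnt and Eno2 are as deposited. Spike-in centring lowers each log2 difference by 0.14, 0.39 and 0.63 on days 3, 6 and 9, so these folds are not lower bounds under that scaling. The facilitative carrier genes Slc2a2 and Slc2a3 were at background throughout, between 2.19 and 2.37 and between 3.24 and 3.64.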
